A study of Mus musculus with 577 samples.

Results

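The insulin-like growth factor (IGF) axis was followed in mouse oocytes, granulosa cells and embryonic stem cells through 8 genes, *Igf1*, *Igf2*, *Igf1r*, *Igf2r*, *Igfbp2*, *Igfbp4*, *Igfbp5* and *Irs1*. They were matched by gene symbol, from a list chosen with earlier results of these data known. Each is a row of every gene count table, 8 of the 22060 protein-coding genes that all tables hold. In this axis the secreted ligands IGF1 and IGF2 bind the receptor tyrosine kinase IGF1R, which signals through the adaptor IRS1, whereas IGF2R takes IGF2 up for degradation. Binding proteins of the IGFBP family hold the ligands in the extracellular fluid and control how much of them reaches the receptor. In rodent ovaries, IGF1 made by granulosa cells acts together with follicle-stimulating hormone in follicle growth.

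The study tested DRaqL, a lysis step that recovers RNA from single cells cut by laser capture microdissection (LCM) out of frozen sections, and it deposited 577 samples, of which 562 are in gene count tables and 15 in an exon table. The mouse embryonic stem cells (mESCs), a pluripotent line grown in 2iLIF medium (the inhibitors CHIR99021 and PD0325901 with LIF), were 45 freshly dissociated cells and 36 cells captured from frozen, ethanol-fixed cell blocks. Ovaries came from female mice 8 weeks of age, whose strain the labels do not give, and the labels name no transgene or drug for them. Oocytes were captured from primary follicles or from secondary to antral follicles, and granulosa cells either neighboring the oocyte or away from it (non-neighboring) in early antral follicles. In alcohol-fixed sections, DRaqL-SC3-seq covered 31 neighboring and 26 non-neighboring granulosa cells, 30 secondary-to-antral and 14 primary oocytes. SMART-Seq v4 without DRaqL covered 17 and 17 granulosa cells and 11 and 7 oocytes in the same order, and DRaqL-SMART-Seq v4 covered 20 and 19 granulosa cells and 9 and 6 oocytes. LCM-seq, which is Smart-seq2 without DRaqL, covered 17 and 20 granulosa cells, and DRaqL-Smart-seq2 15 and 19. Sections fixed in formalin for 24 h gave 12 and 12 granulosa cells, 7 secondary-to-antral and 5 primary oocytes. A single mouse in proestrus gave 35 and 35 granulosa cells and 8 oocytes by LCM from the frozen sections of one ovary, and 14 granulosa cells attached to oocytes, 21 other granulosa cells and 14 grown oocytes freshly dissociated from cumulus-oocyte complexes of the other ovary in medium with dibutyryl-cAMP. There were also 7 pools of 10 neighboring cells, 7 pools of 10 non-neighboring cells, 7 bulk samples that each took the granulosa of 1 sectioned follicle of early antral or unidentified stage, and 8 oocytes captured in 2 serial sections each.

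Levels are RPM, reads of a gene scaled to 1 common total of reads on protein-coding genes in every library, mostly as log2 (RPM+1), and a gene was detectable in a library with at least 1 read. Reads came from the 3′ ends of transcripts, so that a level was compared across cells for 1 gene and not between genes. Library totals ran from 12748 to 17506401 reads, and those of pools and bulk samples from 3811945 to 8259281. The labels name no mouse behind single cells, so a group of cells counted as 1 sample. Its SD is the spread over cells, no p-value was taken from cells, and a difference between means of more than 1.8 on the log2 (RPM+1) scale, the fold used by the study, served for description. Intervals on shares of cells and on summed reads cover counting error only, as reads carried no molecular identifiers. The summed level of 10 granulosa marker genes had a median of 6366 RPM in neighboring and 6815 RPM in non-neighboring cells by DRaqL-SC3-seq, and of 521 and 538 RPM in secondary-to-antral and primary oocytes.

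In GRCm38, *Igf1* lies at chr10:87858265-87937042 on the plus strand, *Igf1r* at chr7:67952827-68233668 on the plus strand, *Igf2* at chr7:142650766-142666816 on the minus strand and *Igf2r* at chr17:12682406-12769664 on the minus strand. *Igfbp2* (chr1:72824503-72852474, plus) and *Igfbp5* (chr1:72857932-72874884, minus) point toward each other with their 3′ ends 5458 bases apart, closer than the 10 kb window after a 3′ end in which reads were counted. *Igfbp4* lies at chr11:99041244-99054392 on the plus strand and *Irs1* at chr1:82233101-82291416 on the minus strand. The sources used here do not say whether counting used the strand, so reads of *Igfbp2* and *Igfbp5* past their 3′ ends cannot be told apart, nor can those of *Irs1* and *Gm9747* on the opposite strand inside it. The same holds for *Igf1* and *Igf1os*, *Igf2* and *Igf2os*, and *Igf2r* and *Airn*, but only where they overlap. *Igf1os* ends at 87863381, *Igf2os* starts at 142659693 and *Airn* starts at 12741311, so each overlap leaves out the 3′ end of the member. *Airn* held 18366 reads over the 37 libraries of the table with pools, bulk samples and serial sections. The part of them inside *Igf2r* was not taken.

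The promoters of *Igf1* and *Igf1r*, the ligand and receptor that were both higher in granulosa cells than in oocytes, are shown from 250 bases before to 50 bases after the transcription start, from RefSeq on GRCm38.p6, 5′ to 3′. All 8 members matched this promoter table, with 12 promoters among 32851. Capitals mark GGGCGG, the GC box. The window of *Igf1* is chr10:87860861-87861160 and that of *Igf1r* is chr7:67952007-67952306, both on the plus strand. The *Igf1* window lies inside the gene, which starts at 87858265 by the coordinates above, and the sequence around that start was not searched. The *Igf1r* window ends before the gene start of 67952827 given above.
Igf1: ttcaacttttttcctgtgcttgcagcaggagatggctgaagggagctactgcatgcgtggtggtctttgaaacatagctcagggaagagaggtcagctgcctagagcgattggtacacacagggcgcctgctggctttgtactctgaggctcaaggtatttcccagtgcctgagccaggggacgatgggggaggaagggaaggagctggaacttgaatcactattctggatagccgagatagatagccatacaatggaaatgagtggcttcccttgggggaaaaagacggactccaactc
Igf1r: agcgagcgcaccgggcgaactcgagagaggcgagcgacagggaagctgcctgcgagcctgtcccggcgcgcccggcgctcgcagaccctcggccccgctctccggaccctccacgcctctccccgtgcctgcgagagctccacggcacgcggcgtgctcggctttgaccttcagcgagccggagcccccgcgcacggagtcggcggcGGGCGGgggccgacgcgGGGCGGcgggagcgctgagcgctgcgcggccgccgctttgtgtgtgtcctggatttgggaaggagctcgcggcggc
The *Igf1* window had a G+C content of 52.3% with 6 CpG dinucleotides, close to the median of 52.7% over all promoters. The *Igf1r* window had 76% with 48 CpG dinucleotides, above 96.9% of promoters. Searched on both strands, GGGCGG was present in 35.7% of all promoters, TATAAA in 13.6%, TGTTTGC in 5.07%, TGTTTAC in 3.65%, TGACGTCA in 1.79% and CAAGGTCA in 1.56%. *Igf1r* held GGGCGG at −43 and −26 from the start and none of the others, and the *Igf1* window held no match to any of the 6. Of the other members, *Igf2r* held GGGCGG at −75, −31 and −25, *Irs1* at −227 and −216, *Igfbp2* at −113, −98 and −37 in 1 of its promoters, and *Igf2* at −17 in 1 of its promoters and at −100 and −85 in another, while *Igfbp4* held TATAAA at −28.

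Among the ligands, *Igf1* was higher in granulosa cells than in oocytes, and *Igf2* was close to undetectable in granulosa cells and mESCs and low in oocytes. By DRaqL-SC3-seq, *Igf1* in the 57 granulosa cells ran from 0 through a median of 193 to 2528 RPM, in the 44 oocytes from 0 through 0.733 to 45.1 RPM, and in the 81 mESCs from 0 through 0 to 50.0 RPM. Most granulosa cells lay above every oocyte, although 3 of them had no read. On the log2 scale the means were 6.84 ± 3.06 (SD, n = 57), 1.34 ± 1.41 (n = 44) and 0.34 ± 0.90 (n = 81). Reads were present in 94.7% of granulosa cells (Clopper-Pearson 95% interval 85.4 to 98.9%), 70.5% of oocytes and 22.2% of mESCs, a cell type that should lack the transcript. After each library was thinned to 100000 reads, 49 of 57 granulosa cells, 9 of 44 oocytes and 4 of 81 mESCs kept a read. The few oocyte reads of *Igf1* stood beside the granulosa marker sums of 521 and 538 RPM given above for the same cells, and their part in the oocyte values was not tested.

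*Igf1* was lower in oocytes than in granulosa cells by more than 1.8 in all 6 datasets that hold both cell types. The oocyte minus granulosa cell difference was −5.50 by DRaqL-SC3-seq, −1.87 by SMART-Seq v4, −4.10 by DRaqL-SMART-Seq v4, −6.01 in formalin-fixed sections, −5.98 for the LCM cells of the single mouse and −6.67 for its freshly dissociated cells. Such a drop was rare among all genes, with 1.91%, 1.07%, 3.51%, 2.98%, 4.66% and 8.47% of tested genes lower by more than 1.8 in the same order. In formalin-fixed sections the 24 granulosa cells lay between 107.04 and 2466 RPM and the 12 oocytes between 0 and 100.2 RPM, so that the cell types did not overlap. The smallest difference came from SMART-Seq v4, where 11 of 34 granulosa cells had no *Igf1* read and the granulosa mean was 4.14 ± 3.75.

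*Igf2* had reads in 8 of 330 single granulosa cells and in none of the 57 by DRaqL-SC3-seq, where 3 counts of the total would allow up to 5.26% of cells with a read and the Clopper-Pearson upper limit was 6.27%. It had reads in 27 of 44 oocytes by DRaqL-SC3-seq, with a mean of 1.19 ± 1.50, and in 9 of 81 mESCs. One primary oocyte stood at 203.6 RPM (7.68 on the log2 scale) while the next highest oocyte was at 3.60 on that scale. No dataset showed an oocyte minus granulosa cell difference in *Igf2* above 1.19.

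**Figure D1:**
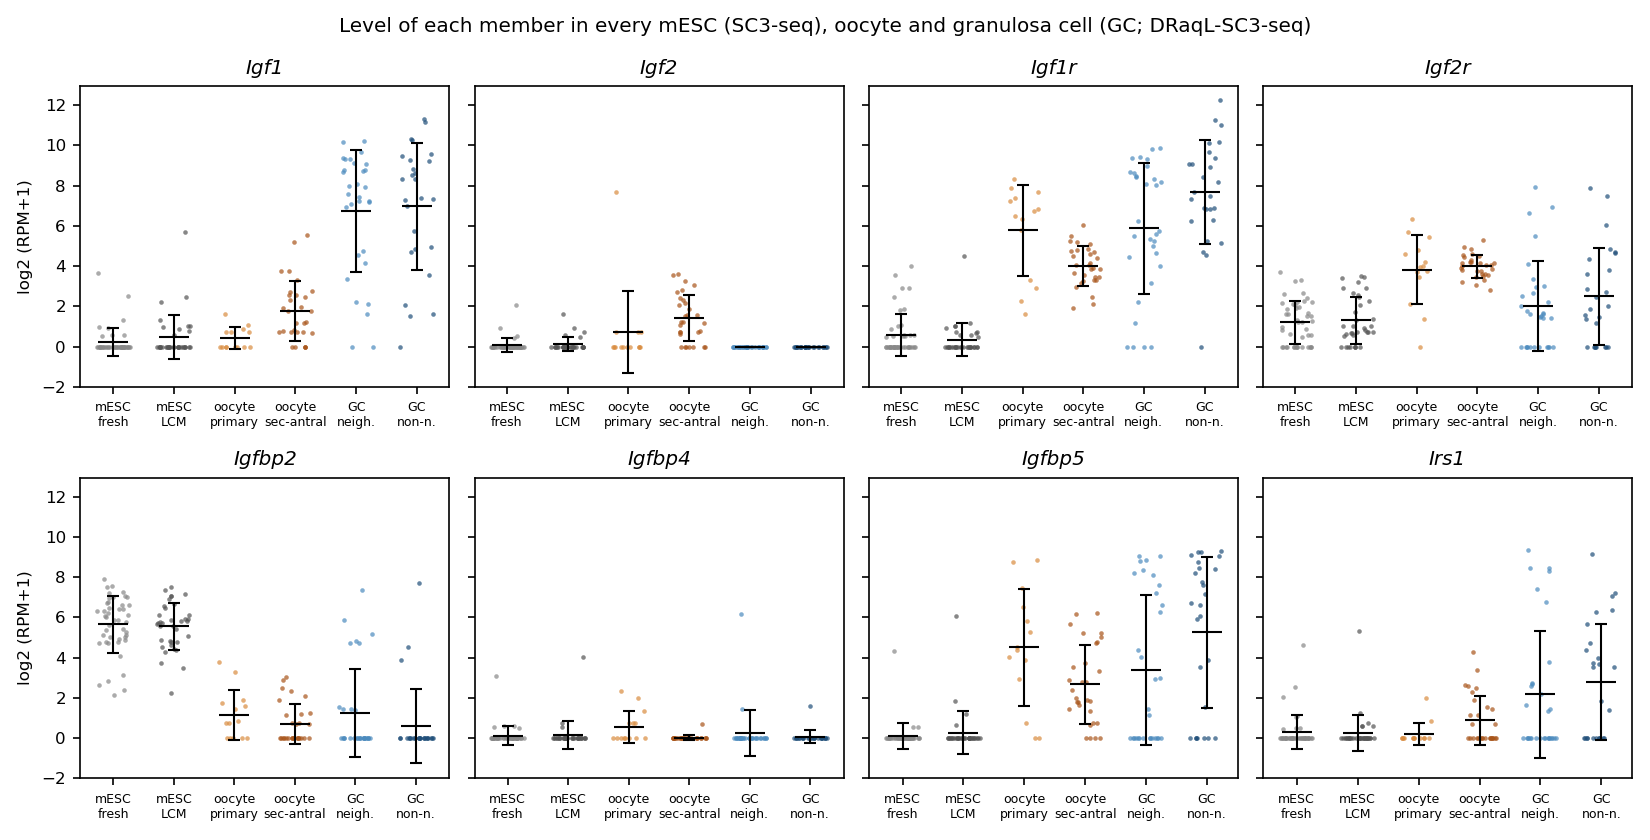
Level of each member in log2 (RPM+1) (vertical axis) in every mESC, oocyte and granulosa cell by DRaqL-SC3-seq, with 1 point per cell and bars for the mean ± SD over cells. *Igf1* points of granulosa cells lie mostly above 4 and those of oocytes mostly below it, while *Igfbp2* averages 5.60 in mESCs and stays near 0 in most oocytes and granulosa cells.

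Of the receptors, *Igf1r* had the higher mean log2 level in granulosa cells and *Igf2r* in oocytes. *Igf1r* in granulosa cells by DRaqL-SC3-seq ran from 0 through 162 to 4922 RPM, in oocytes from 2.02 through 18.2 to 323 RPM, and in mESCs from 0 through 0 to 21.97 RPM. Every one of the 44 oocytes had reads, as did 52 of 57 granulosa cells and 28 of 81 mESCs, and the ranges of oocytes and granulosa cells overlapped. After thinning to 100000 reads, 32 of 44 oocytes, 51 of 57 granulosa cells and 4 of 81 mESCs kept an *Igf1r* read. The oocyte minus granulosa cell difference of *Igf1r* was −2.13, −0.70, −2.12, −2.75, −4.17 and −2.63 in the order of datasets given for *Igf1*, and it passed 1.8 in 5 of 6. Among cells whose labels name the same library pool, a grouping set after the data were seen and possible in the single mouse, the mean difference in LCM and fresh cells was −3.28 and −4.82 for *Igf1*, −4.77 and −0.91 for *Igf1r*, and 1.33 and 3.53 for *Igf2r*.

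*Igf2r*, the clearance receptor for IGF2, ran from 0 through 14.8 to 79.4 RPM in the oocytes by DRaqL-SC3-seq and from 0 through 2.07 to 238.7 RPM in the granulosa cells. Oocytes were even in *Igf2r*, with an SD of 1.05 around a mean of 3.93, and granulosa cells were scattered at 2.23 ± 2.29. The oocyte minus granulosa cell difference was positive in all 6 datasets, at 1.70, 3.58, 2.16, 2.55, 2.37 and 0.97, and it passed 1.8 in 4. Such a difference was common among all tested genes, of which 45.35%, 47.5%, 27.03%, 28.7%, 37.7% and 40.8% were higher in oocytes by more than 1.8. On log2 of the mean RPM + 1, which follows the highest cells, none of those 4 differences passed 1.8 (0.28 in SMART-Seq v4, 0.68 in DRaqL-SMART-Seq v4, 1.09 in formalin-fixed sections and 0.40 for LCM cells of the single mouse). In the other 2 datasets the mean RPM was lower in oocytes, at 17.99 against 21.1 by DRaqL-SC3-seq and 43.8 against 90.03 in fresh cells, so the direction of *Igf2r* turned there with the scale. Between adjacent sections of the same 8 oocytes, the median absolute difference was 0.22 for *Igf2r*, 0.73 for *Igf1r*, 0.77 for *Igfbp5*, 1.27 for *Igf2* and 2.02 for *Igf1*.

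Each of the 3 binding proteins had a different pattern. *Igfbp2* was highest in mESCs, where it ran from 3.37 through 54.1 to 235.7 RPM with reads in 81 of 81 cells, against 13 of 57 granulosa cells and 22 of 44 oocytes by DRaqL-SC3-seq. Its means were 5.60 ± 1.30 in mESCs, 0.96 ± 2.04 in granulosa cells and 0.84 ± 1.08 in oocytes. The exon table, which was made with Y-shaped adapters from 10 mESC libraries, fresh and LCM as one group here, and 5 oocyte libraries, also held 11608 *Igfbp2* reads in 10 of 10 mESC libraries, at 18.6 to 329 RPM of all exon reads, and 624 reads on 3 junctions between exons. The other members had at most 69 exon reads over those 10 libraries.

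*Igfbp4* was seldom detectable by DRaqL-SC3-seq, with reads in 3 of 57 granulosa cells and 7 of 44 oocytes, whereas 90 of 330 granulosa cells had reads over all tables. *Igfbp5* was split between cells. Over all tables, 168 of 330 granulosa cells had no *Igfbp5* read and 62 stood at or above 8 on the log2 scale. By DRaqL-SC3-seq it ran from 0 through 15.1 to 636 RPM in granulosa cells and from 0 through 6.47 to 452 RPM in oocytes, with means of 4.24 ± 3.82 and 3.26 ± 2.42, and 7 of 81 mESCs had reads. Its oocyte minus granulosa cell difference stayed within 1 of 0 in all 6 datasets, from −0.98 to 0.17.

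*Irs1*, the adaptor that couples the receptor to phosphoinositide 3-kinase, had reads in 29 of 57 granulosa cells, 15 of 44 oocytes and 14 of 81 mESCs by DRaqL-SC3-seq. Its level ran from 0 through 1.56 to 655 RPM in granulosa cells and from 0 through 0 to 18.2 RPM in oocytes. *Irs1* was lower in oocytes in all 6 datasets (−1.79, −1.13, −1.75, −0.50, −1.25 and −2.02) and passed 1.8 in 1.

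Over the 8 members and 6 datasets, 18 of 48 differences between oocytes and granulosa cells passed 1.8, with 2, 2, 3, 3, 3 and 5 members in the order above. Of the 8 members, 7 or 8 passed the level filter of log2 (RPM+1) above 4 in at least 1 cell, *Igf2* being the one left out. Among all tested genes 47.3%, 48.6%, 30.5%, 31.7%, 42.4% and 49.2% passed in either direction. Those shares would give 17.9 of the 43 member differences that passed the level filter, against the 18 found, with fewer members than that in the first 2 datasets and more in the other 4. Their direction differed, as by DRaqL-SC3-seq the median over members was −0.55 and the median over all tested genes was 1.57. A wider list of 38 genes of the IGF and insulin pathway had 33 above the level filter there, and 18 passed, 17 of them higher in oocytes and 1 lower, with a list median of 1.74. The transcription factor *Foxo3* was higher by 5.25 (7.59 ± 1.60 in oocytes against 2.34 ± 2.82), the receptor-binding adaptor *Grb10* by 5.18 (5.97 ± 1.15 against 0.79 ± 1.48), and *Tsc1* and *Mtor* of the growth-control kinase pathway by 4.15 each. The related adaptor *Grb14* was the one lower, by −2.26 (1.53 ± 1.53 against 3.78 ± 3.10).

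Across the 31 groups of libraries, the order of levels placed neighboring granulosa cells of formalin-fixed sections first for *Igf1* at 9.41 ± 1.11 and for *Igf1r* at 10.13 ± 0.73. All 19 groups of granulosa libraries stood above all oocyte groups for *Igf1*, and fresh mESCs came last at 0.25. Each step between adjacent groups was within the larger SD of the pair, so that neighbors in the order did not differ beyond their spread, for every member but *Igf1r*, where 29 of 30 steps were. The exception was the step of 2.09 from secondary-to-antral oocytes by DRaqL-SC3-seq at 4.00 ± 0.99 to freshly dissociated grown oocytes at 1.91 ± 1.57. The genes whose group means followed *Igf1* most closely over these 31 groups, among 11533 genes, were *Thbs4*, *Car14* and *Slc38a5* with Pearson's r of 0.958, 0.953 and 0.951, while *Igf1r* followed it at 0.72. For *Igf1r* they were *Mast4*, *Sox5* and *1700112E06Rik* (0.954, 0.939 and 0.939) and for *Igfbp5* *Rasd1*, *Sox12* and *Msi1* (0.823, 0.797 and 0.795). Those for *Irs1* were *Omd*, *Fbn2* and *Pcdh7* (0.871, 0.830 and 0.824), for *Igfbp2* *Pycard*, *Lap3* and *Tfrc* (0.891, 0.890 and 0.859), for *Igf2r* *Pigk*, *Spats2* and *Atp6v1h* (0.859, 0.852 and 0.847) and for *Igfbp4* *Mgarp*, *Aebp1* and *H2-D1* (0.834, 0.800 and 0.788). Groups share library method and depth, and the values are descriptions.

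Between oocyte stages, *Igf1r* had a higher mean in primary than in secondary-to-antral oocytes in all 4 datasets with both, and *Igfbp5* was higher by more than 1.8 in 2. The share of all genes with a higher mean in primary oocytes in all 4 was not taken. By DRaqL-SC3-seq *Igf1r* was at 5.77 ± 2.26 in 14 primary and 4.00 ± 0.99 in 30 secondary-to-antral oocytes, a difference of 1.77, and in formalin-fixed sections at 8.00 ± 0.92 in 5 and 5.76 ± 1.52 in 7, a difference of 2.24. The other *Igf1r* differences were 0.82 by SMART-Seq v4 and 1.24 by DRaqL-SMART-Seq v4. In both of these, stage and library pool cannot be told apart, as the primary oocytes were in 1 library pool and the secondary-to-antral ones in another, but for 1 oocyte by SMART-Seq v4, against which the *Igf1r* difference within the pool was −1.83. *Igfbp5* was higher by 1.83 by DRaqL-SC3-seq (4.50 ± 2.90 against 2.67 ± 1.96) and by 2.93 in formalin-fixed sections (8.82 ± 0.71 against 5.88 ± 3.05), where *Irs1* was also higher by 2.91. Both *Igfbp5* and *Igf1r* overlapped between the stages. In all, 4 of 32 stage differences passed 1.8. The members that passed numbered 1, 0, 0 and 3 of the 6, 4, 4 and 7 above the level filter by dataset. The share of all tested genes that passed was 20.0% by DRaqL-SC3-seq, 22.3% by SMART-Seq v4, 30.5% by DRaqL-SMART-Seq v4 and 25.4% in formalin-fixed sections.

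Between positions in the follicle, the mean of *Irs1* was lower in neighboring than in non-neighboring granulosa cells in 8 of 8 datasets, with a median difference of −2.40, and 1.77% of 18545 genes were lower in all 8. The difference of *Irs1* was −0.63 by DRaqL-SC3-seq, −2.36 by SMART-Seq v4, −1.59 by DRaqL-SMART-Seq v4, −3.50 in formalin-fixed sections, −1.65 for LCM cells of the single mouse, −2.98 for its fresh cells, −2.45 by LCM-seq and −2.44 by DRaqL-Smart-seq2. Neighboring cells had *Irs1* reads in 14 of 31, 3 of 17, 6 of 20, 6 of 12, 15 of 35, 1 of 14, 7 of 17 and 9 of 15 cells in that order. Non-neighboring cells had them in 15 of 26, 8 of 17, 11 of 19, 10 of 12, 21 of 35, 14 of 21, 15 of 20 and 19 of 19, a larger share in each dataset. These shares were not matched for depth. Median totals were higher in non-neighboring cells by DRaqL-SMART-Seq v4, by DRaqL-Smart-seq2 and in the single mouse, and lower in the other datasets. In its fresh cells they were 132194 against 87884 reads, and the median difference over all tested genes was −0.59. The ranges overlapped in every dataset, and the datasets are not independent animals, since several took sections of the same ovaries.

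*Igfbp5* and *Igfbp4* were each lower in neighboring cells in 7 of 8 datasets, where 7.46% of genes were lower in at least 7. The *Igfbp5* difference was largest by DRaqL-Smart-seq2, at −4.29 (1.05 ± 1.81 in 15 cells against 5.33 ± 3.56 in 19), rank 5 by size among 14144 tested genes, and it passed 1.8 in formalin-fixed sections (−2.84) and by DRaqL-SC3-seq (−1.87). *Igfbp5* was higher by 0.54 by SMART-Seq v4, the exception. *Igfbp4* passed 1.8 by DRaqL-SMART-Seq v4 (−3.53) and by DRaqL-Smart-seq2 (−2.08), and it was higher by 0.18 by DRaqL-SC3-seq. *Igf1* was higher in neighboring cells in 5 of 8 datasets, with differences from −1.01 to 1.76. No common direction was seen for *Igf1r* (−1.81 to 1.42), *Igf2r* (−0.66 to 2.68) or *Igfbp2* (−1.09 to 1.34).

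In all, 12 of 64 position differences passed 1.8, against 1.97%, 5.28%, 5.26%, 7.62%, 1.92%, 16.1%, 5.47% and 3.55% of all tested genes, and the members that passed numbered 2, 1, 1, 3, 0, 1, 1 and 3 of the 7 that passed the level filter. Among cells of the same library pool, *Irs1* was lower in neighboring cells in 3 of 4 pools by SMART-Seq v4, 3 of 4 by DRaqL-SMART-Seq v4, 2 of 2 in formalin-fixed sections, 5 of 7 for LCM cells of the single mouse, 2 of 3 for its fresh cells, 4 of 4 by LCM-seq and 4 of 4 by DRaqL-Smart-seq2. The mean *Igfbp5* difference within pools kept its direction in each of these 7 datasets. For LCM cells of the single mouse it was −0.76, with *Igfbp5* higher in 2 pools and lower in 3 of 7. The *Igfbp4* difference in fresh cells turned from −0.53 to 0.91. In formalin-fixed sections and by SMART-Seq v4, *Igfbp4* was higher in 1 pool and lower in 1. *Igf1* in fresh cells turned from −1.01 to 2.05 and was higher in 3 of 3 pools, and it was higher in each pool in formalin-fixed sections (2 of 2), by DRaqL-SMART-Seq v4, LCM-seq and DRaqL-Smart-seq2 (4 of 4 each), while it was higher in 1 of 4 by SMART-Seq v4 and in 3 of 7 for LCM cells of the single mouse. The summed level of the theca and interstitial markers, of which 5 of 6 were found, moved with position as *Irs1* did. Its medians in neighboring and non-neighboring cells were 1.68 and 78.1 RPM by DRaqL-SC3-seq, 181 and 361 by SMART-Seq v4, 2.56 and 326 by DRaqL-SMART-Seq v4, 39.3 and 949.5 in formalin-fixed sections, 0 and 30.4 for LCM cells of the single mouse, 10.98 and 3306 for its fresh cells, 9.14 and 1057 by LCM-seq, and 2.97 and 838 by DRaqL-Smart-seq2. The sum rested on few genes, as at most 3 of the 5 markers had a median above 0 in any of these groups. By LCM-seq, *Cyp17a1* and *Star* had no read at either position. The list holds *Hsd3b1*, which the study used as a corpus luteal marker, so the sum does not single out theca cells. The part of this sum in the *Irs1*, *Igfbp4* and *Igfbp5* differences was not tested. By DRaqL-SC3-seq, 13 of 31 neighboring and 3 of 26 non-neighboring granulosa cells held oocyte marker RNA at 10% or more of the median oocyte. Without such cells in any dataset, the *Irs1* differences that had passed 1.8 with all cells ran from −3.86 to −2.27. That range does not cover DRaqL-SC3-seq, DRaqL-SMART-Seq v4 or LCM cells of the single mouse, where *Irs1* had not passed 1.8.

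**Figure D2:**
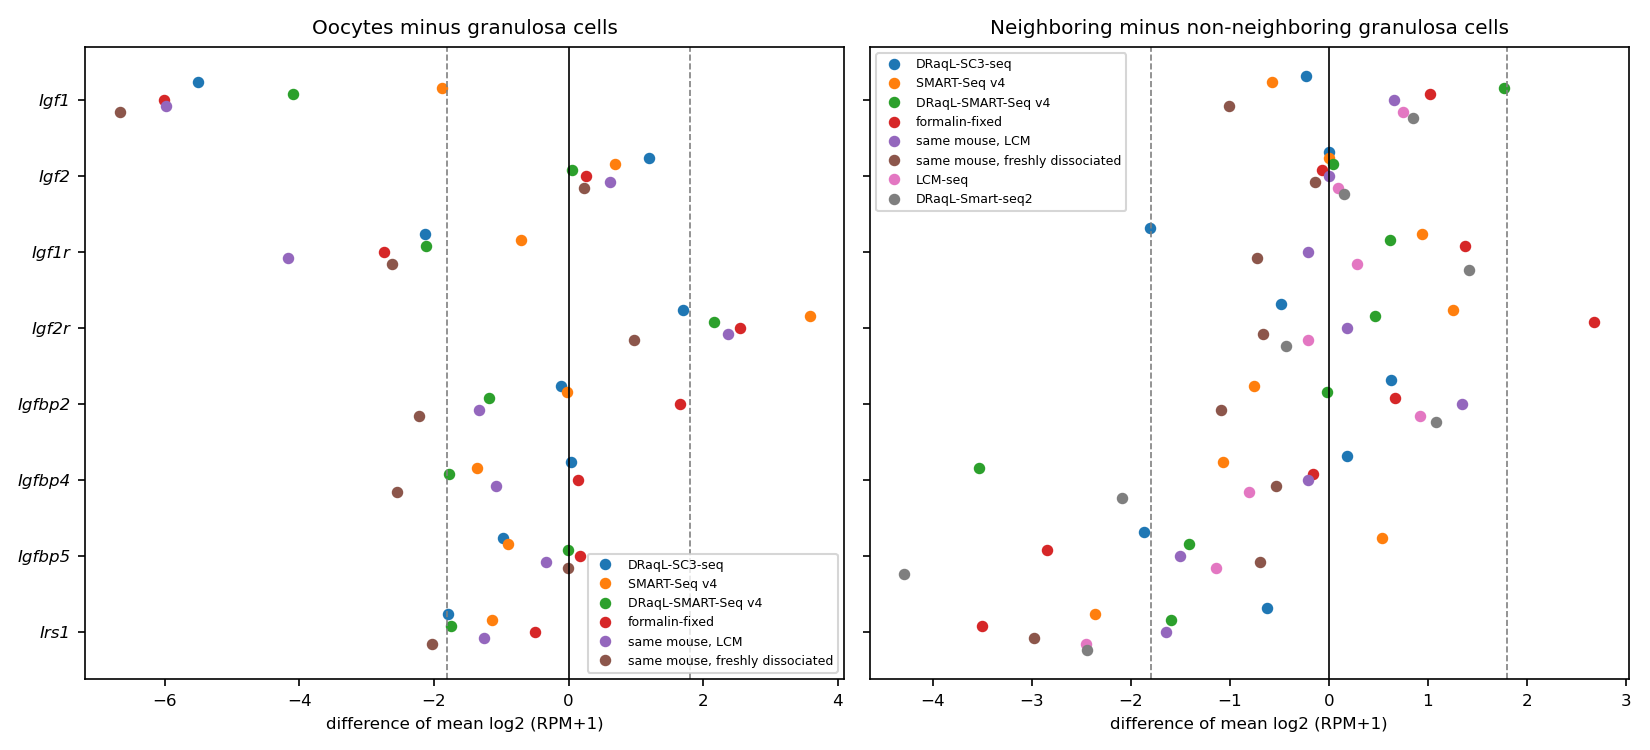
Difference of mean log2 (RPM+1) (horizontal axis) for each member in each dataset, oocytes minus granulosa cells on the left and neighboring minus non-neighboring granulosa cells on the right, with dashed lines at 1.8 in either direction. On the left every *Igf1* point lies left of the dashed line, from −6.67 to −1.87, and on the right every *Irs1* point lies left of 0, from −3.50 to −0.63.

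The pools of 10 granulosa cells were the groups whose position could be tested over samples, 7 against 7, with edgeR's quasi-likelihood test. The test called 44 of 9704 genes (0.453%, Benjamini-Hochberg adjusted), 402 at an unadjusted p under 0.05, and none of the 5 members it covered, of which 0 were below 0.05 before adjustment. DESeq2 called 1.20% of the same genes and no member. *Igf2*, *Igfbp4* and *Igfbp5* did not pass its filter on low counts. In simulated data of this design the test found 5% of 4-fold and 44% of 16-fold changes, so that a missing call leaves room for large differences. The samples may share animals, and the p-values cover the spread between pools.

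*Igf1* in the 7 neighboring pools ran from 16.8 through 632.5 to 1022 RPM and in the 7 non-neighboring pools from 3.60 through 225 to 470.4 RPM. Neighboring pools 3 to 7 were all above every non-neighboring pool, while neighboring pools 1 and 2 lay low with non-neighboring pools 1 and 2. The log2 fold change of *Igf1* was 1.26 (SE 0.871, edgeR adjusted p = 0.998). With same-numbered pools taken as blocks, it was 1.80 (edgeR adjusted p = 0.251). *Igf1* was higher in the neighboring pool in 7 of 7 same-numbered pairs. The labels do not say what a shared number marks, and the share of all genes higher in 7 of 7 was not taken. *Igf1r* ran from 66.2 through 116.04 to 443 RPM and from 6.82 through 136 to 251 RPM, a fold change of 0.88 on the log2 scale (SE 0.646).

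*Irs1* ran from 0 through 1.92 to 129.9 RPM in neighboring and from 0 through 42.5 to 90.96 RPM in non-neighboring pools, with a log2 fold change of −1.20 (SE 1.44, edgeR adjusted p = 0.998). Of the neighboring pools 5 were at or below 5.44 RPM and pool 1 was the highest of all 14, so that the direction of the single cells was present in most pools and not in each. *Igf2r* changed by −0.85 (SE 1.02) and *Igfbp2* by 0.13 (SE 1.37) on the log2 scale, both with overlapping pools. Without non-neighboring pool 6 the *Igf2r* change was 0.16, and without neighboring pool 3 that of *Igfbp2* was −1.41.

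*Igfbp5* was nearly all or none in the pools. It was at 893.6 and 499.8 RPM in neighboring pools 1 and 2 and at 528 and 295 RPM in non-neighboring pools 1 and 2, and no other pool exceeded 12.1 RPM. In the bulk samples it was at 317 and 959 RPM in samples 3 and 4 and at most 2.87 RPM in the other 5. The pools with *Igfbp5* were the lowest of their position in *Igf1*. *Igf1* stood at 16.8 and 102.6 RPM in neighboring and 3.60 and 3.60 RPM in non-neighboring pools 1 and 2. *Igf1* was also lowest in bulk samples 4 and 3, at 37.8 and 87.04 RPM. Among single cells with thinned libraries, Pearson's r of *Igf1* with *Igfbp5* took both signs. It ran from −0.53 (neighboring, formalin-fixed) to 0.27 (neighboring, LCM cells of the single mouse). By DRaqL-SC3-seq it was 0.10 in neighboring and −0.24 in non-neighboring cells. Both genes had reads in 12 of 31 and 17 of 26 of these cells. Over the means of the 31 groups of libraries r was −0.04. Theca and interstitial marker sums in neighboring pools 1 and 2 were 2071 and 254 RPM and in the other neighboring pools at most 8.71 RPM, while in non-neighboring pools they ran from 40.2 to 5239 RPM, the highest in pool 6, which had 0.262 RPM of *Igfbp5*. The summed level of 6 stroma markers was 1639 RPM in neighboring pool 1 and at most 5.86 RPM in the other neighboring pools, 4255 and 2699 RPM in non-neighboring pools 1 and 2 and at most 733 RPM in the others, and 169, 103.9 and 183 RPM in bulk samples 3, 4 and 8 and at most 3.09 RPM in the other 4. Granulosa marker sums were lowest of all pools in non-neighboring pools 1 and 2, at 2796 and 3118 RPM. Their part in these values was not tested.

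*Igfbp4* was present in neighboring pools 1, 3 and 5 at 19.4, 73.5 and 133 RPM and in non-neighboring pools 1, 2 and 6 at 28.5, 19.6 and 128.5 RPM, and in the other 8 pools at 0.528 RPM or less. It was thus also patchy between pools of 10 cells, in part in the same pools as *Igfbp5*. Neighboring pool 1 and non-neighboring pools 1 and 2 held both genes. Neighboring pool 2 held *Igfbp5* with 0.226 RPM of *Igfbp4*. Neighboring pools 3 and 5 and non-neighboring pool 6 held *Igfbp4* with at most 0.262 RPM of *Igfbp5*. *Igfbp2* ran from 0 to 91.1 RPM in neighboring and from 0 to 55.4 RPM in non-neighboring pools.

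Bulk granulosa of 7 follicles was compared with the 14 pools in the same way, and 12 of 11917 genes (0.101%) were called, 743 at an unadjusted p under 0.05. None of the 7 members tested by edgeR was called or below 0.05 before adjustment, and DESeq2 called 90 genes and no member, with *Igf2r* at an unadjusted p of 0.016. In bulk, fewer cells of a type and less RNA per cell cannot be told apart. *Igf1r* was even over follicles, from 134 through 225 to 310 RPM (7.79 ± 0.40, SD, n = 7), against 7.37 ± 1.05 and 6.37 ± 1.70 in neighboring and non-neighboring pools. *Igf1* ran from 37.8 through 119 to 319 RPM. *Irs1* had reads in all 7 bulk samples, from 22.2 through 27.7 to 149.5 RPM. The log2 fold changes of bulk against pools were −1.10 (SE 0.729) for *Igf1*, 0.53 (SE 0.471) for *Igf1r*, −1.49 (SE 0.821) for *Igf2r*, −1.53 (SE 1.18) for *Igfbp2*, −2.21 (SE 1.63) for *Igfbp4*, 0.30 (SE 1.67) for *Igfbp5* and 0.98 (SE 0.996) for *Irs1*, each with an edgeR adjusted p of 0.878 or more. Without bulk sample 4 the *Igfbp5* change was −1.43. The wider pathway list had 0 genes called of 25 tested between positions and 0 of 28 for bulk, with 1 and 3 at an unadjusted p under 0.05.

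**Figure D3:**
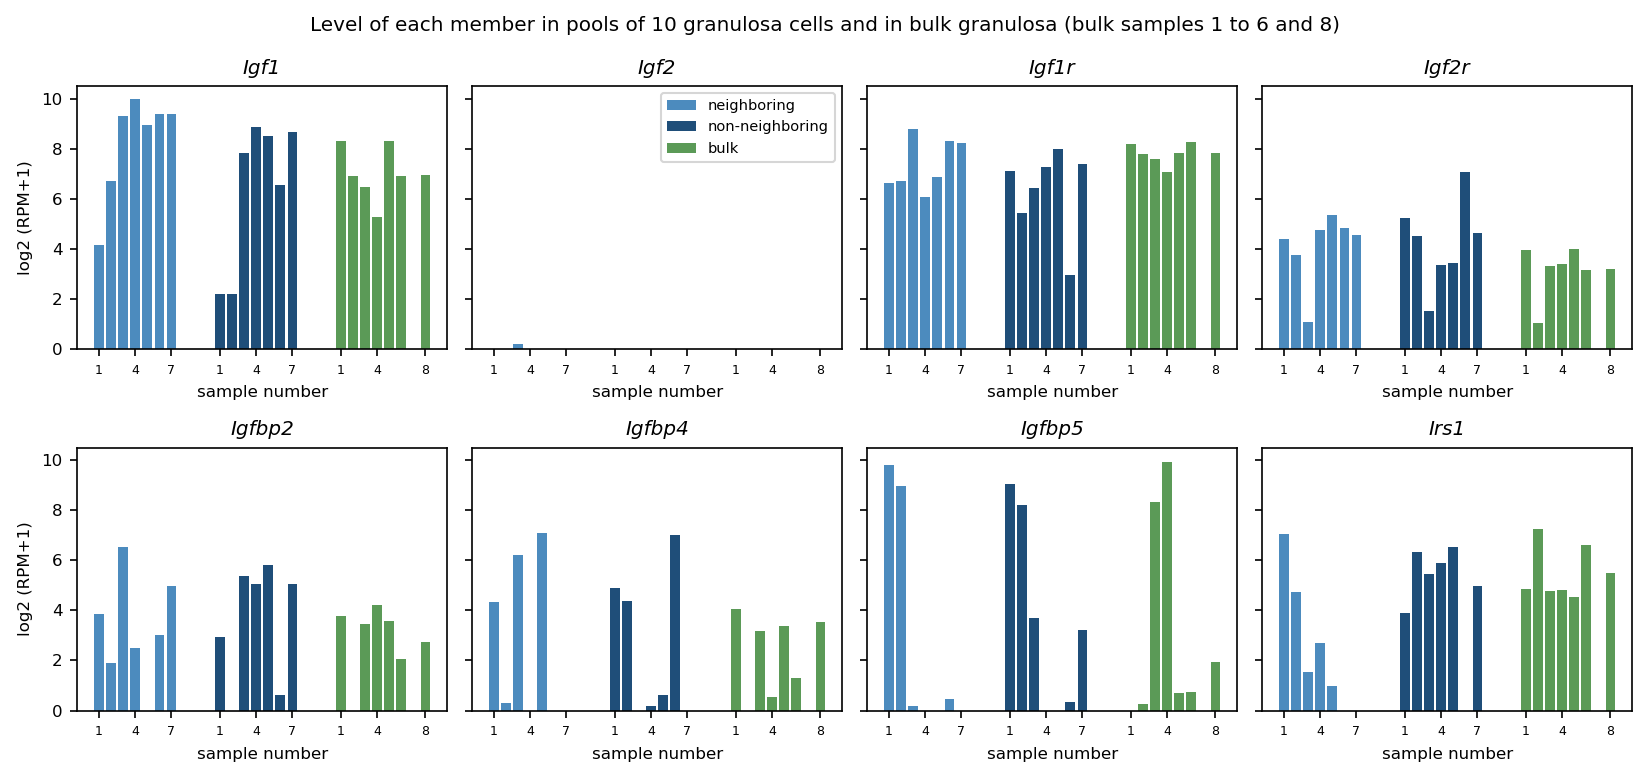
Level of each member in log2 (RPM+1) (vertical axis) in every pool of 10 granulosa cells, by position and pool number, and in bulk samples 1 to 6 and 8, with 1 bar per sample. *Igfbp5* bars are tall in pools 1 and 2 of both positions and in bulk samples 3 and 4, where the *Igf1* bars are among the shortest of their group.

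Freshly dissociated and laser-captured cells differed in *Igf1r*. In the single mouse, *Igf1r* in the 70 LCM granulosa cells ran from 5.00 through 1135 to 6297 RPM and in the 35 fresh ones from 0 through 45.7 to 534 RPM. All 70 LCM cells and 26 of 35 fresh cells had reads, and the means were 9.49 ± 2.098 and 4.54 ± 3.00, a difference of 4.96 whose rank by size was within the first 0.178% of 15700 tested genes. In oocytes of that mouse, *Igf1r* ran from 22.8 through 39.7 to 91.4 RPM in the 8 LCM cells and from 0 through 4.09 to 13.4 RPM in the 14 fresh cells. The oocyte groups did not overlap, and their difference of 3.41 ranked within the first 0.947% of 11508 tested genes. Of all tested genes, 6.80% of those in granulosa cells and 7.90% of those in oocytes were higher after LCM by more than 1.8, and *Igf1r* was the one member that passed in either cell type.

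The fresh granulosa cells were shallower, with median totals of 87884 reads for attached and 132194 for other cells against 233125 and 309128 for neighboring and non-neighboring LCM cells. With libraries of at least 100000 reads thinned to that depth, the *Igf1r* differences were 4.49 in granulosa cells and 2.46 in oocytes. Shallower libraries were left out, which were 8 of 14 attached and 7 of 21 other fresh granulosa cells. Among LCM granulosa cells they were 7 of 35 neighboring and 3 of 35 non-neighboring ones. *Igf1* was no lower in the fresh granulosa cells, at 8.60 ± 2.77 against 7.68 ± 2.96 after LCM. The fresh cells came from complexes of fully grown follicles of the other ovary and were lysed without DRaqL, so isolation, follicle and chemistry cannot be told apart in this comparison. Among mESCs, where fresh and LCM cells came from one culture, no member passed 1.8, while 0.488% of tested genes did, and *Igfbp2* was at 5.64 in fresh cells. The other members averaged at most 1.29 in mESCs, so that a fall of 1.8 could not be seen for them. *Igf1r* was at 0.58 in fresh and 0.34 in LCM mESCs, which therefore give no test of its difference in ovarian cells.

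**Figure D4:**
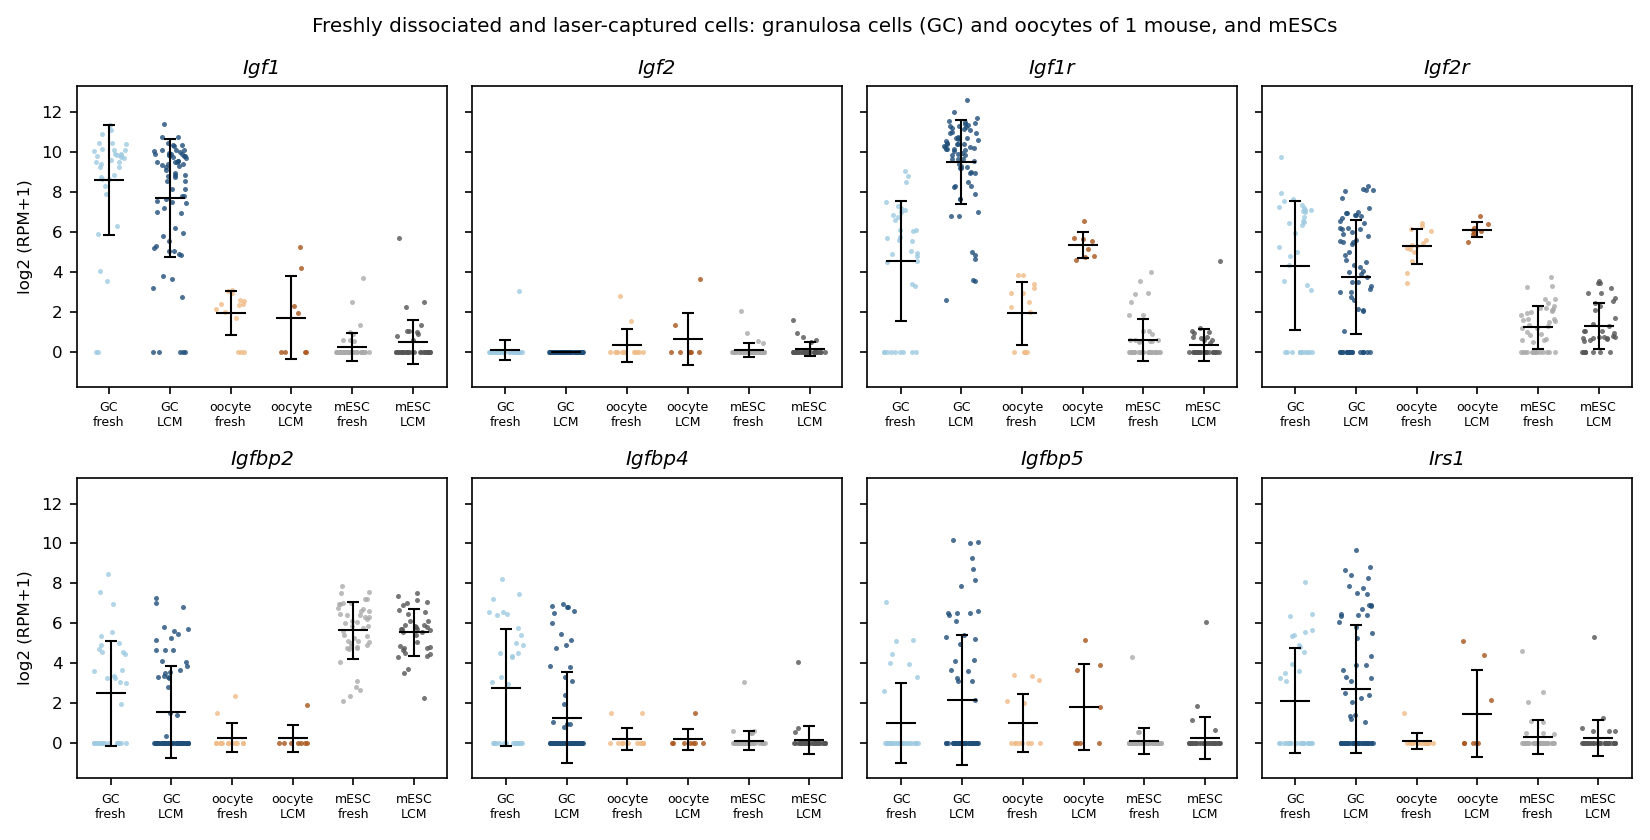
Level of each member in log2 (RPM+1) (vertical axis) in freshly dissociated and laser-captured granulosa cells and oocytes of 1 mouse and in mESCs, with 1 point per cell and bars for the mean ± SD over cells. In the *Igf1r* panel the LCM oocytes lie above all fresh oocytes and the LCM granulosa cells average 9.49 against 4.54, whereas *Igf1* and *Igfbp2* show no such gap.

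*Igf1* and *Igfbp5* differed between the SMART-Seq v4 datasets with and without DRaqL. With DRaqL, *Igf1* in granulosa cells was higher by 2.44 (6.58 ± 2.89, n = 39, against 4.14 ± 3.75, n = 34), with reads in 35 of 39 against 23 of 34 cells, and 11.2% of genes were higher by more than 1.8 in that comparison. *Igfbp5* moved the other way, by −2.99 in granulosa cells, where 0.169% of genes were lower by more than 1.8, and by −2.096 in oocytes, where 1.42% were. *Igfbp5* in those granulosa cells ran from 0 through 1.68 to 997 RPM with DRaqL and from 0 through 102.7 to 4763 RPM without. In the Smart-seq2 pair, DRaqL against LCM-seq, no member passed 1.8, while 1.52% of genes did, and *Igfbp5* was higher with DRaqL by 1.71. The sign of the *Igfbp5* difference was therefore opposite in the pair of chemistries, and whether the sections held the same follicles was not tested.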

How the data were processed

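Each column of the deposited tables holds raw counts of reads by gene for 1 sample. The authors trimmed the reads with fastp 0.20.0 and cutadapt 1.16, aligned them to GRCm38 with HISAT2 2.1.0 and counted them with HTSeq 0.10.0, including reads within 10 kb of annotated 3′ ends. The deposited counts per exon and junction came from featureCounts 2.0.1. Amplified cDNA without molecular identifiers means that counts are not independent molecules.

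For each library, RPM took the sum over the 22060 protein-coding genes (12748 to 17506401 reads) as its base, and log2 (RPM+1) has a pseudocount of 1. Cells were compared on genes that exceeded 4 on this scale in 1 or more of the cells compared, and differences of mean log2 (RPM+1) above 1.8 were counted. Shares of cells carry Clopper-Pearson 95% intervals, and a share of 0 was limited by 3 counts. Granulosa cells with oocyte RNA held at least 10% of the median oocyte's sum of 14 oocyte markers.

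Pools (7 against 7) and bulk samples (7 against 14 pools) were tested with edgeR 4.0.16 (quasi-likelihood test, TMM scaling, filterByExpr, Benjamini-Hochberg adjustment over all genes, threshold 0.05) in R 4.3.3 with limma 3.58.1, and with DESeq2 1.42.0 as an alternative. The test was tried on simulated counts in which 200 genes were changed. Other steps used python 3.11.15, numpy 2.4.6, pandas 2.3.3, scipy 1.17.1 and matplotlib 3.10.9, with the seed 20230918. Samples were grouped by their labels. The 3 granulosa cells that the study kept apart for mixed profiles stayed out of the groups.

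The members and the gene lists (38 pathway genes, 14 oocyte, 10 granulosa, 6 theca and interstitial markers, of which 5 were found, and 6 stroma markers) were chosen with earlier results of these data known. The named genes are the 8 members, the 3 genes most like each by Pearson's r over group means, and the largest differences of the pathway list, of which the 4 highest and the 1 lower gene by DRaqL-SC3-seq are given. Alternatives were other pseudocounts, the mean RPM, thinning to 100000 reads, totals over all genes, cells with oocyte RNA or kept-apart cells, other scaling and filters, a pool-number block, leaving out each sample and, added after the data were seen, differences within library pools. The number of genes called was the planned measure for pools and bulk; its alternatives are given as shares of genes tested, a scale chosen afterwards.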

Additional observations from a re-analysis of the deposited data

Results flagged for a closer look

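In the groups of 7 pools or bulk samples, the gap of the extreme sample to its neighbor was compared with the whole range of the group by Dixon's criterion. Over the members, 22 groups of pools or bulk samples were tested and 4 samples were past the 95% critical value, and chance passes about 5% of groups. *Igf2r* was low in neighboring pool 3, at 1.07 on the log2 (RPM+1) scale, where the other neighboring pools had at least 12.6 RPM, and in bulk sample 2, at 1.03, where the other bulk samples had at least 7.92 RPM. *Irs1* was at 0 in non-neighboring pool 6, while the other non-neighboring pools had at least 13.9 RPM. *Igf2* was at 0.19 in neighboring pool 3, from 1 read, and at 0 in the other 6 neighboring pools. Neighboring pool 3 also had the highest *Igfbp2* of the neighboring pools, at 91.1 RPM, and non-neighboring pool 6 the lowest *Igf1r* of its position, at 6.82 RPM.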

How the results depend on the processing

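No member was called between pools or between bulk and pools under any alternative, with adjusted p from 0.251 to 1 for the pools and from 0.341 to 1.00 for bulk. The share of all tested genes that was called moved more. For the pools it went from 0.453% to 1.20% with DESeq2 and 0.294% (56 genes, of more tested) with no filter on low counts. It ran from 0.0296% (3 genes) to 0.567% when each pool was left out, lowest without neighboring pool 5, at 0.0788% and 0.118% without neighboring pool 6 or 4, and from 0.0898% to 0.268% without non-neighboring pool 3, 7, 5, 4 or 1. For bulk it went from 0.101% to 0.755% with DESeq2, 2.31% with no filter on low counts, 0.0267% against neighboring pools alone and 0% (0 genes) against non-neighboring pools alone. It ran from 0% to 0.469% when each bulk sample was left out, at 0% without sample 3, 5, 6 or 8, 0.180% without sample 2 and highest without sample 4. The pool numbers are shared by the positions in the labels, but nothing in the labels says what a number shares, and the correlation of the deviations of same-numbered pools (−0.0005 to 0.179, best with the own number for 1, 6 and 7) was not above 0.1 for each. With the pool number as a replicate block 0.0309% of genes and 0 members were called, with *Igf1* the 1 member below 0.05 before adjustment, at a log2 fold change of 1.80 (edgeR p = 0.00207, adjusted p = 0.251). *Igf1* was higher in the neighboring pool in 7 of 7 same-numbered pairs, the only one of the 8 members to be so. The share of all genes higher in 7 of 7 was not taken, so this count has no background.

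The direction of 3 fold changes rested on single samples. *Igfbp2* between positions ran from −1.41 to 0.45, with −1.41 without neighboring pool 3 and −0.02, −0.08 and −0.07 without non-neighboring pool 1, 2 or 6. *Igf2r* ran from −1.05 to 0.16, the latter without non-neighboring pool 6, and *Igfbp5* in bulk from −1.43 without bulk sample 4 to 0.53. The other 167 values of a member under an alternative kept their direction.

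Among single cells, 272 values of a member past 1.8 moved by less than the spread between cells and 9 by more, each keeping its direction. Counts of differences past 1.8 depended on the pseudocount, which was 1. With 0.1 they were 28 for oocytes against granulosa cells (18), 8 for stages (4), 4 for LCM against fresh (2) and 5 for DRaqL (3), and with 10 they were 9 for oocytes against granulosa cells, 4 for position (12) and 1 for DRaqL. On log2 of the mean RPM + 1 they were 30, 9 for stages and 4 for LCM against fresh. Depth limits members near 1 read per library, such as *Igf2* and *Igfbp4*, for which a missing read is not absence.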

Other observations

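The 5 oocyte libraries of the exon table held reads on *Igfbp5* (750 reads in 4 of 5 libraries, with a median of 1.02 and a highest value of 94.002 RPM of all exon reads), *Igf2* (308 reads in 4), *Igf2r* (236 reads in 5), *Igf1r* (184 reads in 5) and *Igf1* (66 reads in 2). Of the members, *Igf1r* had reads across exon junctions in these oocytes, with 32 reads on 3 junctions in 3 libraries.

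The 3 granulosa cells that were kept apart by the study, because their profiles were mixed with those of oocytes, had reads of *Igf1*, *Igf1r* and *Igfbp5* in each, no read of *Igf2* or *Igfbp4*, and at most 2 reads of *Igfbp2* or *Irs1*. The neighboring cell had 207.9 RPM of *Igf1*, 36.8 RPM of *Igf1r* and 912 RPM of *Igfbp5*. The pair of non-neighboring cells had 1201 and 32.02 RPM of *Igf1*, 78.8 and 1654 RPM of *Igf1r*, and 50.9 and 69.9 RPM of *Igfbp5*.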
